A study of Mus musculus with 6 samples.

Results

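The genes described here were the cytoplasmic ribosomal protein genes of the mouse, chosen by symbol: Rpl or Rps followed by a digit, or Rplp0, Rplp1, Rplp2 or Rpsa, without pseudogenes marked "-ps" and without the Rps6k kinases. The rule took 86 of the 32287 genes listed, 52 with large-subunit and 34 with small-subunit symbols. It also took Rps19bp1, which encodes a nucleolar protein that binds Rps19 and is not part of the ribosome, and Rps27rt, an intronless copy of Rps27. Among the genes it missed were Fau and Rack1, which encode ribosomal proteins under other names.

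The ribosome is built from a few RNAs and a fixed set of proteins, most of them needed in equal numbers. The small subunit decodes the mRNA and the large subunit joins amino acids. Most of these genes are expressed in every cell, and their mRNAs carry a run of pyrimidines at the 5′ end, the TOP motif, through which mTOR signalling controls their translation. A few have a near copy elsewhere in the genome, a paralog, whose protein can take the place of the common one, as Rpl22l1 does for Rpl22.

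The samples were CD11b+TOM+ cells sorted from the inguinal lymph nodes of CD169Tom mice, Cd169Cre/+.Tdtomatofl/fl on a C57BL/6J background, in which cells that had turned on Siglec1, the gene of CD169, and their progeny carry tdTomato (TOM). All 4 mice carried both alleles. Both unimmunized and both immunized mice were over 6 weeks old, and the immunized mice had received hen egg lysozyme (HEL, per the labels) 9 days before the nodes were taken. The methods describe HEL joined to an ovalbumin peptide (HEL-OVA) in Sigma Adjuvant System for mice given OT-II T cells and SW-HEL B cells a day earlier. They do not say whether the mice sequenced here were given such cells, so in the B and T cell gates of immunized mice transferred cells and cells of the host cannot be told apart. A separate hashtag antibody marked the cells of each mouse before they were mixed and split over 2 captures of the 10X platform, which counts mRNA molecules as UMIs from their 3′ ends. TOM marks a history of Siglec1 expression and not a cell type, and 2 mice a condition is the whole replication of the study.

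After filtering, 12139 cells carried 1 hashtag: 2828 and 537 from unimmunized mouse 1 and mouse 2, and 4052 and 4722 from immunized mouse 1 and mouse 2. Their median depth was 5877, 6280, 9674 and 12727.5 UMIs per cell in that order, so that depth moved with immunization. Cells were placed in 14 marker gates, named "-like" after lists of marker genes that held no ribosomal protein gene, and 5297 cells reached no gate. A library is the sum of 1 gate in 1 mouse. In all, 9 gates held at least 10 cells in every mouse: 3 lymphoid (B cell-like, alpha-beta T-like and NK-like) and 6 myeloid (C1q macrophage-like, classical and nonclassical monocyte-like, Cd209a DC-like, cDC1-like and migratory DC-like). In these gates, lymphoid markers summed to 3305 to 17250 CPM (counts scaled to a common library total) in the 12 lymphoid libraries and to 33.9 to 257 CPM in the 24 myeloid libraries. Myeloid markers summed to 1351 to 2517 CPM in the lymphoid and to 3457 to 14240 CPM in the myeloid libraries. Itgam, the gene of the sorted protein CD11b, had a median of 7.76 CPM in the B cell-like, 6.81 CPM in the alpha-beta T-like and 120 CPM in the NK-like gate. Among the myeloid gates it was as low in the migratory DC-like gate, at 5.39 CPM, and in the cDC1-like gate, at 10.25 CPM. The other myeloid gates had medians of 77.8 to 174 CPM, with 153 CPM in the classical monocyte-like gate. Low RNA of the sort marker was thus found in gates of both lineages. The paper classed the B cells and NKT cells among its sorted cells as contaminating. Whether the cells of the lymphoid gates carried CD11b or TOM was not tested here.

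The 8 start sites shown next belong to the members that differed most between lymphoid and myeloid gates, 5 that were higher and 3 that were lower in the lymphoid gates. Each line gives 30 bases from RefSeq, 15 on each side of the annotated start, on the strand of the gene in GRCm38.p6. Capitals mark the longest run of C and T wherever it lay in the window. A TOP mRNA begins with such a stretch, but a run before the start is not in the annotated mRNA. Rplp1 had no such window.
Rpl22l1, chr3:28805493-28805522, plus strand: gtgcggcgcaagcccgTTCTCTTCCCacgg
Rpl12, chr2:32961697-32961726, plus strand: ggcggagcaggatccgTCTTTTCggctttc
Rpl13a, chr7:45128731-45128760, minus strand: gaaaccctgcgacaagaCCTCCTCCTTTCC
Rps15a, chr7:118116133-118116162, minus strand: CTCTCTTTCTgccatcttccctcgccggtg
Rps27, chr3:90213634-90213663, minus strand: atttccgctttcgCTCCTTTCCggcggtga
Rps27l, chr9:66946071-66946100, plus strand: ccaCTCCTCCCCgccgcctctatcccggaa
Rps9, chr7:3704026-3704055, plus strand: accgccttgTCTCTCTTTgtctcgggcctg
Rpl7a, chr2:26910792-26910821, plus strand: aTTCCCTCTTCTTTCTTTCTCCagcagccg

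A run of at least 7 pyrimidines stood in all 8 windows, from 7 bases in Rpl12 to 21 in Rpl7a, for higher and lower members. In Rps15a and Rps27l the run began at base -15 and base -12 from the annotated start. These runs were 10 and 9 bases long and ended before the start, so they do not show a TOP stretch in those mRNAs. RefSeq windows were found for 66 of the 86 symbols. A run of that length stood in 44.9% of the members' 78 windows of 30 bases and in 18.6% of all 32851 windows. In the longer stretch from 250 bases before to 50 after the start, CTTTCC was found on either strand in 51.3% of the members' windows and in 26.6% of all windows, and CCGGAAG, a sequence of the kind bound by ETS factors, in 34.6% and 8.86%. The letters describe the windows only, and annotated starts can lie some bases away from the start in use.

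Ribosomal protein mRNA made up 21.3% of the UMIs of the 50 libraries with at least 10 cells, 15593283 of 73346241. The share was largest in the alpha-beta T-like gate, at 32.7% ± 2.35 (SD, n = 4 mice), and in the B cell-like gate, at 32.6% ± 2.02. In the alpha-beta T-like gate it was 31.1% and 31.7% in unimmunized and 31.9% and 36.2% in immunized mice. In the B cell-like gate it was 30.5% and 31.4% in unimmunized and 33.4% and 35.02% in immunized mice. These T and B cell gates overlapped each other in range.

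The cDC1-like gate, cross-presenting dendritic cells, followed at 27.6% ± 1.38, with the Cd209a DC-like gate at 27.4% ± 1.44. The NK-like gate stood below both at 25.6% ± 1.65, with 26.9% and 26.1% in unimmunized and 26.3% and 23.2% in immunized mice. The other 4 myeloid gates lay together: 21.2% ± 1.82 in classical monocyte-like, 21.1% ± 0.729 in nonclassical monocyte-like, 21.1% ± 2.25 in C1q macrophage-like and 21.1% ± 1.56 in migratory DC-like cells.

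Among the 8 steps between neighbours in that order, the ranges over mice failed to overlap at 2: the B cell-like over the cDC1-like gate, by 4.98 points, and the NK-like over the classical monocyte-like gate, by 4.47 points. Both steps had the same sign in 4 of 4 mice (exact sign-flip test over mice, two-sided, p = 0.13, which is the lowest value possible with 4 mice, before any adjustment over the 8 steps). The Cd209a DC-like over the NK-like gate, by 1.82 ± 1.14 points, also had 1 sign in 4 of 4 mice and the same p, although its ranges overlapped. At the other 5 steps the mean difference was at most 0.152 points and below its SD over mice.

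The other 5 gates held under 10 cells in at least 1 mouse. The gamma-delta T-like gate was at 27.4% ± 1.14 (n = 3), the medullary sinus macrophage-like (MSM-like) gate at 23.4% ± 2.45 (n = 3) and the neutrophil-like gate, the lowest of the 14, at 16.9% (n = 3). The MSM-like cells held the fewest UMIs, a median of 2014. Malat1, a nuclear RNA, made up 0.0252% to 0.138% of the UMIs of their libraries, against at least 0.765% in every other gate. Cells in no gate gave 27.5% and 27.8% in unimmunized and 25.6% and 19.1% in immunized mice.

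**Figure D1:**
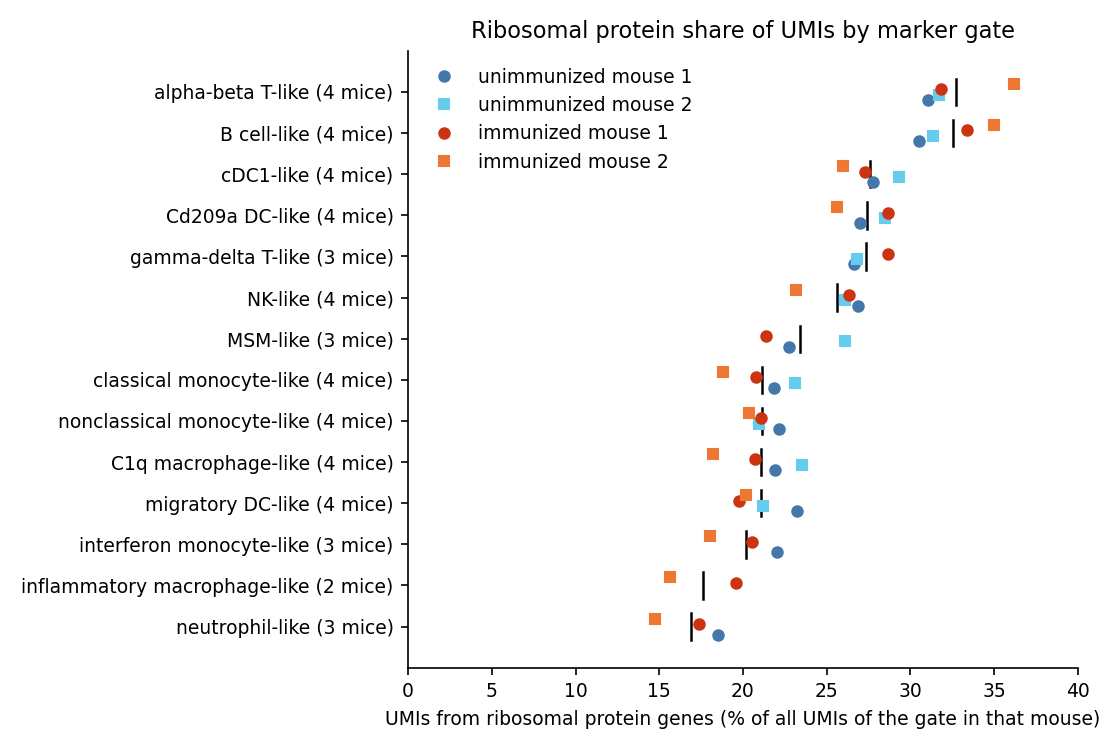
Share of UMIs from the ribosomal protein genes (x axis, percent) in each marker gate (y axis, with the number of mice). Each point is 1 mouse, circles for mouse 1 and squares for mouse 2 of a condition, and the vertical line is the mean over mice. The B cell-like and alpha-beta T-like gates sit between 30.5% and 36.2%, to the right of all other points, and the monocyte-like and C1q macrophage-like gates between 18.2% and 23.5%.

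Taken with equal weight, the 3 lymphoid gates averaged 30.3% and the 6 myeloid gates 23.2%. The lymphoid share was higher in each of the 4 mice, by 5.499 and 5.29 points in unimmunized and 7.46 and 9.96 points in immunized mice, a mean of 7.05 ± 2.17 points (SD, n = 4; p = 0.13 by the same exact test, again its lowest value). The lineages were not uniform: the cDC1-like and Cd209a DC-like gates averaged 27.4% and 28.9% in unimmunized and 28.0% and 25.8% in immunized mice, and the Cd209a DC-like gate was above the NK-like gate in 4 of 4 mice. Leaving those 2 dendritic cell gates out raised the difference to 9.18 points, and leaving out the NK-like gate raised it to 9.39.

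A share is not an amount. The median cell of the cDC1-like gate held 4650 member UMIs and that of the Cd209a DC-like gate 3549.5, more than the alpha-beta T-like cell at 2031 and the B cell-like cell at 1515.5, since the whole depth per cell was larger. The C1q macrophage-like cell held 2619. In cells of matched depth, between 4000 and 10000 UMIs and pooled over mice, the median cell was at 36.0% in the B cell-like, 31.3% in the alpha-beta T-like and 26.0% in the NK-like gate. Among the myeloid gates it was at 27.2% in the cDC1-like and 26.3% in the Cd209a DC-like gate, both above the NK-like gate, and at 21.02% in the nonclassical monocyte-like, 19.8% in the classical monocyte-like, 19.4% in the migratory DC-like and 16.6% in the C1q macrophage-like gate. These pooled cells were not balanced over mice. At all depths, 817 of 1150 C1q macrophage-like cells but 73 of 531 alpha-beta T-like cells came from immunized mouse 2. No share per mouse was taken by depth, so gate and mouse were not separated here. In the pooled cells the order of the NK-like and these dendritic cell gates differed between depths. At 10000 UMIs or more the NK-like gate was at 30.7% (26 cells), above the cDC1-like and Cd209a DC-like gates, both at 28.4%. The B cell-like gate was then at 32.7% and the alpha-beta T-like gate at 28.5%. Mitochondrial UMIs, a sign of RNA quality, made up 4.95% to 5.202% of the alpha-beta T-like and 5.85% to 6.82% of the B cell-like libraries against 2.30% to 3.60% of the classical monocyte-like ones. Their part in the shares was not tested, but with mitochondrial genes and Malat1 taken out of the total the lineage difference was 7.87 points. Capture 2 gave the higher share in 43 of 51 pairs of the same gate and mouse, by a median of 1.12 points, and the lineage difference was 5.78 points in capture 1, over the 8 gates it could compare, and 7.29 points in capture 2.

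Single members were then compared between lymphoid and myeloid gates on counts scaled by TMM to the whole library. The CPM values of members given below carry this TMM scaling. Those of the markers and Itgam above, and of Msrb1 below, are plain CPM without it. Of 84 members with enough counts to test, 63 were higher in the lymphoid gates, 3 were lower and 18 did not pass the threshold (edgeR's quasi-likelihood test, Benjamini-Hochberg adjusted p under 0.05 over 10835 genes). Among all genes tested, 23.4% were higher and 23.2% lower. The median member was higher by 0.26 on the log2 scale and the median gene by 0.04. The shift was shared between the subunits, with 39 of 50 large-subunit and 24 of 34 small-subunit members higher, and 57 members lay within 0.2 of the members' median. Leaving out immunized mouse 2 gave 32 higher members, where 4349 of 10693 genes were called in either direction. With 4 other choices of cells there were 29 to 36. Genes called in either direction then ran from 3358 of 9479 to 4741 of 10183, against 5050 of 10835 in the reported fit.

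The largest rise was in Rpl22l1 (chr3:28805436-28807424), the paralog of the large-subunit protein gene Rpl22. Its mean over the lymphoid gates was 1196 and 1233 CPM in unimmunized and 1436 and 1437 CPM in immunized mice. Its mean over the myeloid gates was 524, 453, 593 and 536 CPM in the same order. The 12 lymphoid libraries, 969 to 1733 CPM, did not overlap the 24 myeloid libraries, 355 to 776 CPM, and among the 9 members that led the 2 directions no other had that separation. The difference was 1.32 ± 0.079 on the log2 scale (standard error), 2.503-fold, with an adjusted p of 8.77e-18 by edgeR, and the call held under all 16 alternatives.

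Rpl12 (chr2:32961559-32965345), whose protein lies at the base of the stalk that receives elongation factors, came next. Its lymphoid means were 3121 and 2821 CPM in unimmunized and 3285 and 3509 CPM in immunized mice. Its myeloid means were 1728, 1595, 1618 and 1437 CPM. The lymphoid mean was higher in 4 of 4 mice, a difference of 1.01 ± 0.076 (edgeR adjusted p = 1.02e-14), though the NK-like gate, at 2223 ± 304 CPM, lay with the cDC1-like gate, at 2280 ± 188 CPM, and far under the alpha-beta T-like gate at 3952 ± 624 CPM.

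Rpl13a (chr7:45125558-45128761), also known for its part in a complex that silences inflammatory mRNAs in activated monocytes, had lymphoid means of 2972 and 2474 CPM in unimmunized and 3199 and 3307 CPM in immunized mice, and myeloid means of 1994, 1877, 1824 and 1653 CPM. The difference was 0.72 ± 0.067 (edgeR adjusted p = 5.38e-12). On this TMM scale lymphoid and myeloid libraries overlapped. The lowest lymphoid library was the B cell-like one of unimmunized mouse 2, at 2037 CPM, below all 4 cDC1-like and 2 of the Cd209a DC-like libraries. The cDC1-like gate, at 2608 ± 281 CPM, was level with the NK-like gate, at 2583 ± 216 CPM. Rps15a, Rps27 and Rplp1, the last an acidic protein of the stalk, were higher by 0.58 ± 0.062, 0.56 ± 0.070 and 0.54 ± 0.072. Rps27 had its highest mean in the B cell-like gate, 7019 ± 760 CPM, and its lowest in the C1q macrophage-like gate, 2824 ± 333 CPM.

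The 3 members that were lower in the lymphoid gates were Rps27l, Rps9 and Rpl7a. Rps27l (chr9:66946086-66949516), a paralog of Rps27 and a known target of p53, had lymphoid means of 213 and 184 CPM in unimmunized and 231 and 253 CPM in immunized mice. Its myeloid means were 428, 399, 450 and 496 CPM, higher in 4 of 4 mice. It fell by 0.94 on the log2 scale (standard error 0.082; edgeR adjusted p = 8.06e-13), the opposite direction to its parent Rps27. Rps9 and Rpl7a fell less, with differences of -0.34 ± 0.063 and -0.26 ± 0.068, and their lymphoid means were below their myeloid means in 4 of 4 mice. The Rps9 call was lost under 1 of 16 alternatives, the stricter gate, and the Rpl7a call under 3 of 16. For Rps9 the NK-like gate was the lowest, at 3137 ± 399 CPM. The alpha-beta T-like gate, at 4119 ± 327 CPM, was also under the lowest myeloid mean, 4235 ± 443 CPM in the nonclassical monocyte-like gate. The B cell-like gate, at 4899 ± 1034 CPM, lay among the myeloid gates. For Rpl7a the B cell-like gate, at 1401 ± 232 CPM, likewise lay among the myeloid means of 1220 to 1600 CPM.

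**Figure D2:**
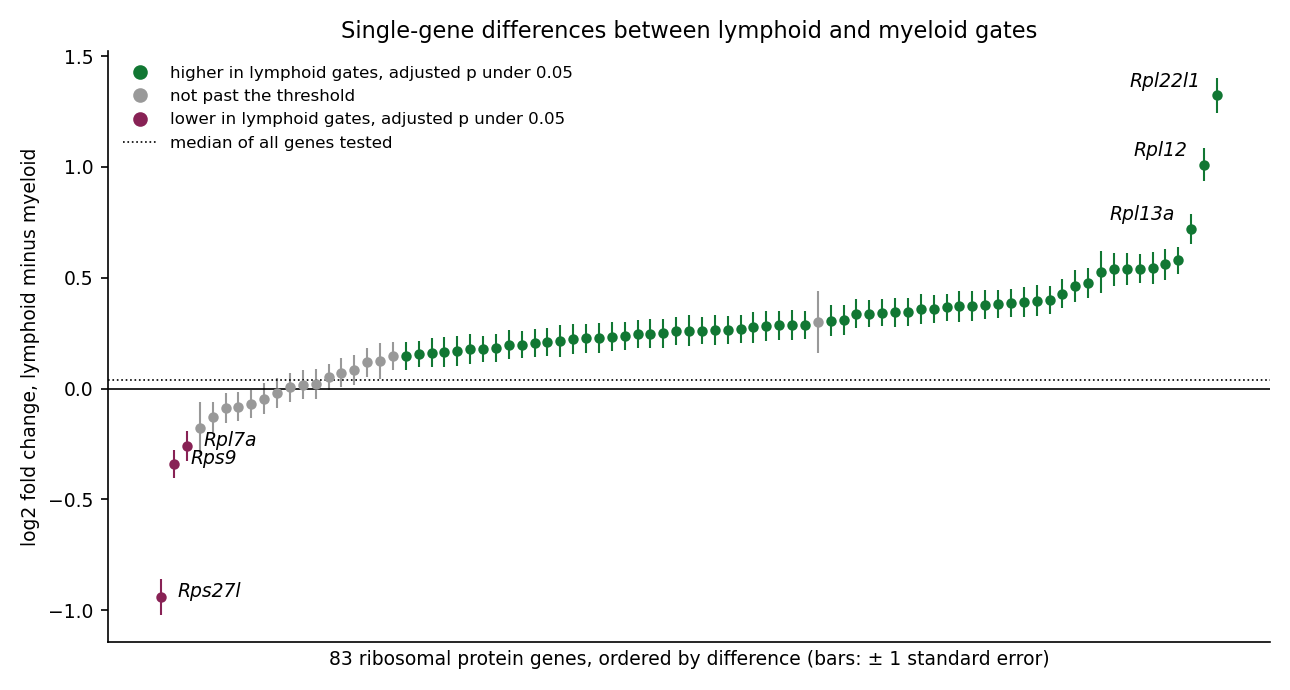
Log2 fold change between lymphoid and myeloid gates (y axis) for the 83 members with a usable error, ordered by size (x axis); bars are 1 standard error, and the dotted line is the median of all genes tested, 0.04. Most members lie in a band around 0.26, while Rpl22l1 at 1.32, Rpl12 at 1.01 and Rps27l at -0.94 lie away from it.

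To separate single genes from the shared shift, the same test was run with each library scaled to its summed member UMIs. On that scale 25 members were higher in the lymphoid gates and 20 lower, and 39 did not pass the threshold, where 13.5% of all genes tested were higher and 33.5% lower. Of the 63 members called higher on the TMM scale, 25 were still higher, 36 were no longer called and 2 were lower. This scaling moved the members by nearly the same amount, for example Rpl22l1 from 1.32 to 1.07 and Rps27l from -0.94 to -1.20. Their order could thus hardly change, and the same leaders are no separate evidence. The same 6 members led the rises, from Rpl22l1 at 1.07 to Rplp1 at 0.29. The largest falls were Rps27l at -1.20, Rps9 at -0.60, Rpl7a at -0.52, Rpl7l1 at -0.44, Rpl10 at -0.39 and Rps19 at -0.35. Rpl7l1 encodes a paralog of Rpl7 that acts in ribosome assembly. Rpl10 encodes a protein added to the large subunit late in its assembly, and Rps19 one needed to mature the small subunit. Each of these 12 calls held under all 14 alternatives run on this scale, while the count of higher members was 13 without immunized mouse 2.

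The plot of the named members by gate showed which gates carried these differences. Rps19 was highest in the migratory DC-like gate, with 8563 and 6236 CPM in unimmunized and 9467 and 8545 CPM in immunized mice, and lowest in the NK-like gate, at 3460, 2907, 3397 and 2553 CPM. Rpsa, which encodes a small-subunit protein also known as a laminin receptor, had its highest mean in the same migratory DC-like gate, at 8514, 7619, 6112 and 7146 CPM. These are levels that the lineage averages do not show, and no test was run on them.

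**Figure D3:**
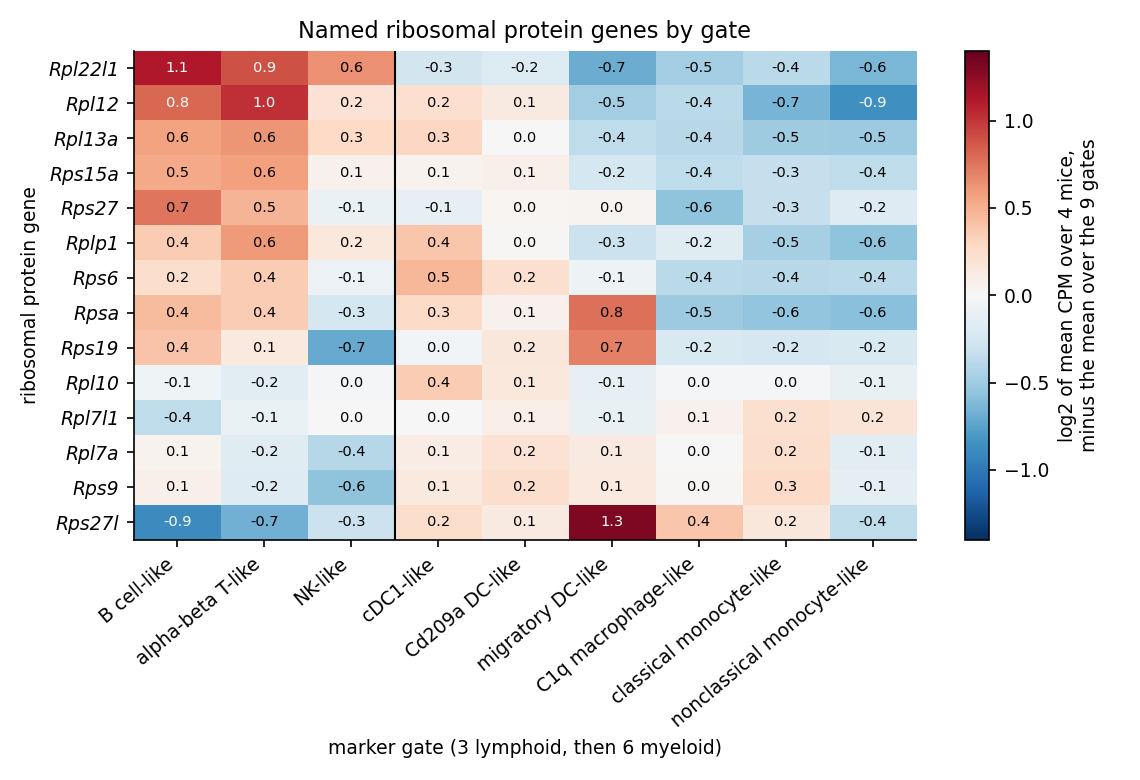
Mean level of 14 named members in each of 9 gates as the log2 difference from the mean of that gene over the gates (color and printed value); members run down the y axis and gates along the x axis, with a line between the 3 lymphoid and 6 myeloid gates. Rpl22l1 and Rpl12 are above their means in the 3 lymphoid gates, and Rpsa, Rps19 and Rps27l are highest in the migratory DC-like gate.

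Paralogs were compared as UMIs per 100 UMIs of the parent gene in the same library, which a common scaling of the library cannot move. The ratio compares gates and does not rank the transcripts of the pair. For Rpl22l1, the lymphoid mean was 57.6 and 61.0 per 100 Rpl22 UMIs in unimmunized and 58.8 and 58.6 in immunized mice. The myeloid mean was 27.3, 26.3, 31.1 and 30.1. Rpl22 itself was higher in the lymphoid gates by 0.26 on the log2 scale, as the median member was. The ratio was 58.5 ± 10.6 in the B cell-like, 57.0 ± 1.78 in the alpha-beta T-like and 61.5 ± 5.33 in the NK-like gate, and between 23.5 and 33.3 in the 6 myeloid gates.

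Gates outside the comparison did not all follow that split. The gamma-delta T-like gate gave 46.9 and 41.3 per 100 in the unimmunized mice and 51.0 in immunized mouse 1. The MSM-like gate, macrophages by their markers, gave 50.6, 42.6 and 53.7 in the same mice, the lower value from 29 Rpl22l1 UMIs. The neutrophil-like gate gave 36.2 to 49.3. A high ratio was thus not limited to lymphoid gates.

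For Rps27l, the lymphoid mean was 4.49 and 3.87 per 100 Rps27 UMIs in unimmunized and 4.47 and 4.79 in immunized mice, and the myeloid mean 11.5, 10.5, 11.4 and 15.1. Among gates the ratio ran from 2.56 ± 0.465 in the B cell-like to 15.5 ± 1.76 in the C1q macrophage-like and 19.2 ± 3.36 in the migratory DC-like gate. The nonclassical monocyte-like gate, at 7.05 ± 0.308, lay beside the NK-like gate at 6.97 ± 1.41. The MSM-like gate gave 21.2, 13.9 and 32.5 in the 3 mice that had it, again from cells with few UMIs and little Malat1.

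For Rpl36al, an intronless copy of Rpl36a, the lymphoid mean was 56.5 and 50.5 per 100 in unimmunized and 60.4 and 59.5 in immunized mice, against myeloid means of 77.5, 82.8, 91.9 and 91.2. There the parent moved: Rpl36a was higher in the lymphoid gates by 0.54 on the log2 scale, and Rpl36al, at -0.05, did not pass the threshold. Rps27rt gave 2.44 to 2.58 per 100 Rps27 UMIs in the lymphoid and 2.32 to 2.71 in the myeloid means, which overlapped. Reads that match more than 1 gene are not counted by Cell Ranger, so near-identical pairs such as Rps27 and Rps27rt are uncertain.

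**Figure D4:**
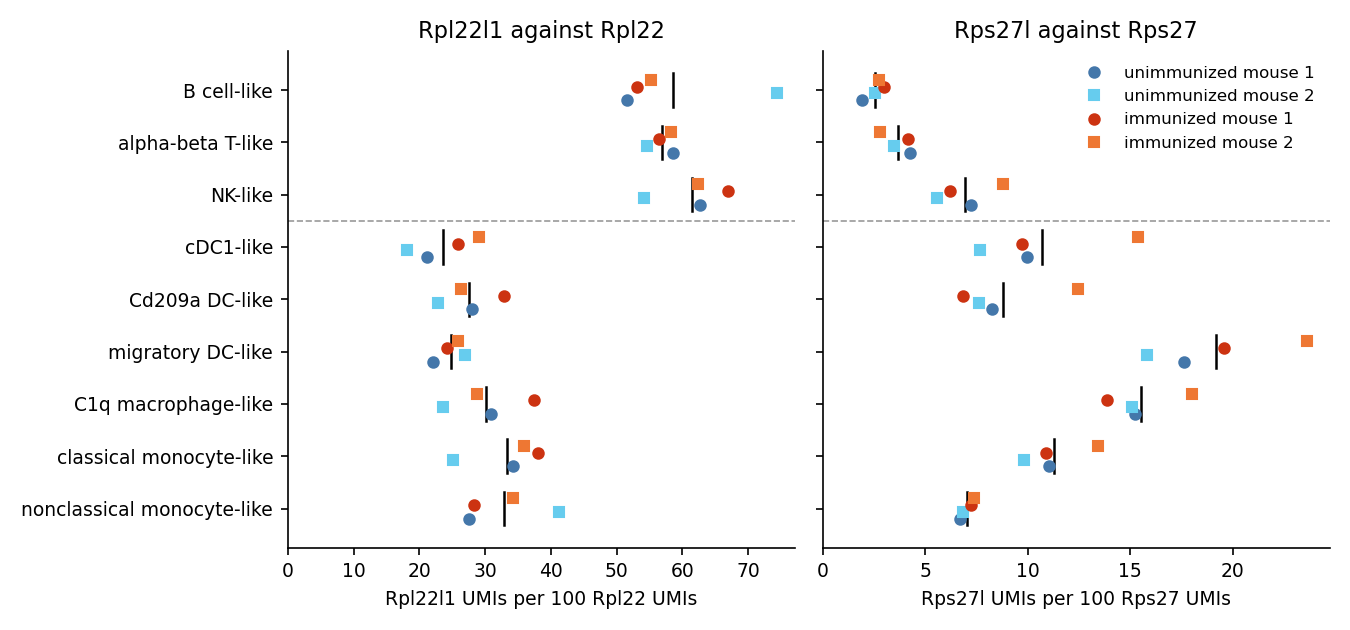
UMIs of Rpl22l1 per 100 of Rpl22 (left) and of Rps27l per 100 of Rps27 (right) in 9 gates (y axis), each point 1 mouse and each vertical line the mean; the dashed line divides lymphoid gates, above, from myeloid gates. All Rpl22l1 ratios above 50 are in the lymphoid gates, and the Rps27l ratio is highest in the migratory DC-like gate, at 19.2.

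Paralogs best known from other tissues were low. Rpl10l, a testis gene, had 6 UMIs and Rpl39l 97 UMIs over all libraries, and neither was tested. Rpl3l, a gene of heart and skeletal muscle, had 259 UMIs, of which 81 lay in the nonclassical monocyte-like gate: 38 and 5 in unimmunized and 29 and 9 in immunized mice. That was 2.15 ± 0.530 per 100 Rpl3 UMIs, when the alpha-beta T-like gate had 0 Rpl3l UMIs in 3535461, which allows up to 3 UMIs, and the B cell-like and NK-like gates 1 UMI each. The fit gave no usable error for Rpl3l. Msrb1 starts 499 bases downstream of Rpl3l on the same strand. Its sum was 1006 CPM in the nonclassical monocyte-like gate and 1345 CPM in the neutrophil-like gate, where Rpl3l had 3 UMIs in 759249. A link between the counts of these genes was not tested.

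Other lists around the ribosome were counted in the same comparison, with no test of a list against the members. Of 42 ribosome biogenesis genes, 24 were higher in the lymphoid gates, 1 was lower and 17 did not pass (median 0.45). Myc, the transcription factor that drives ribosome production, was higher by 2.33 ± 0.248 and Gnl3, a nucleolar GTPase, by 1.33 ± 0.150, while Pes1, which matures the large-subunit RNA, fell by 0.59. The count of higher biogenesis genes was 12 without unimmunized mouse 1 and 15 without immunized mouse 1. Of 27 translation factors and other TOP mRNAs, only 3 were higher and 9 lower (median -0.07): Eef1d and Eef1g, subunits of elongation factor 1, rose by 0.38 and 0.37, and Vim, the intermediate filament of myeloid and mesenchymal cells, and Nap1l1, a histone chaperone, fell, with -0.90 and -0.38. Eef1a1, which brings aminoacyl-tRNA to the ribosome, was at 0.11 and did not pass.

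Of 78 mitochondrial ribosomal proteins, 8 were higher, 10 lower and 60 not called (median 0.05), led by Mrps5 at 0.79 and Mrpl58 at 0.50 and by Mrps2 at -2.00 and Mrpl14 at -1.07. Of 18 genes of translation control, 3 were higher and 4 lower: the S6 kinase gene Rps6kb2 and the mTORC2 subunit Rictor rose by 0.76 and 0.51, and the mTORC1 component Akt1s1 and the translation repressor Eif4ebp1 fell, to -1.78 and -1.59. Among ribosomal proteins outside the symbol rule, Fau was lower at -0.19 and Rack1 was not called at 0.11. Fau lost its call under 6 of 16 alternatives. Of the RNA-quality genes, Malat1 and Neat1, nuclear RNAs, were lower, at -0.21 and -1.30, and their part in the members' shift was not tested. For Malat1 this did not hold gate by gate. It made up 0.961% to 1.45% of the UMIs of the B cell-like libraries. In the classical monocyte-like gate it made up 0.834% to 1.11%, and in the migratory DC-like gate 3.31% to 5.68%.

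The C1q macrophage-like gate holds the cells whose markers are those of apoptotic cell clearance, the interest of the study. Against the mean of the other 5 myeloid gates, 0 of 84 members were higher and 9 lower (edgeR, adjusted p under 0.05), where 8.92% of all genes were higher and 4.10% lower. DESeq2 also called 0 members higher and 22 lower, where it called 951 of 10835 genes in either direction. Unadjusted, 28 members had a p under 0.05 by edgeR, but the share of all genes at that level was not counted. The median member was at -0.18 and the median gene at 0.02. Rpsa fell by 0.51 (standard error 0.101; edgeR adjusted p = 0.000279), and Rps27 and Rps6 were lower at -0.46 and -0.36. Rps6 encodes the small-subunit protein that S6 kinases phosphorylate. Rpl9, Rpl13, Rpl17, Rpl18 and Rps14 were also called and lay between -0.33 and -0.29. The count was 0 in capture 1 alone, 0 under the stricter hashtag rule and 1 without unimmunized mouse 1. In the first 2 of these settings, 812 of 9524 and 797 of 9479 genes were called in either direction. Of the other lists, 2 of 42 biogenesis genes, 6 of 78 mitochondrial ribosomal genes and 1 of 18 translation control genes were higher in this gate by the same test, and 2 of 27 translation factors were lower. The nuclear RNAs Malat1 and Neat1 were lower too, at -0.56 and -0.59, and their part in the result was not tested. Malat1 made up 0.791% to 1.19% of the UMIs of the C1q macrophage-like libraries. It made up 0.834% to 1.11% in the classical monocyte-like and 3.31% to 5.68% in the migratory DC-like gate.

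That result changed with the reference gates. Rpsa in the C1q macrophage-like gate was 3315 and 3310 CPM in unimmunized and 2980 and 2458 CPM in immunized mice, beside means of 2927 ± 243 and 2853 ± 199 CPM in the classical and nonclassical monocyte-like gates and of 7347 ± 1000 CPM in the migratory DC-like and 5169 ± 358 CPM in the cDC1-like gate. Against the monocyte-like gates alone, a comparison added after those values were seen, 2 members were higher and 0 lower, where 5.52% of all genes were higher and 4.76% lower. The 2 were Rps27l at 0.48 ± 0.127 (edgeR adjusted p = 0.00922) and Rps26 at 0.33 ± 0.110 (adjusted p = 0.0469), named after their values were seen. Rpsa then stood at 0.05, with the sign reversed and no call. Unadjusted, 11 members had a p under 0.05 by edgeR in that comparison, and again the share of all genes was not counted.

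Immunization was compared within gates, 2 mice against 2. The share averaged over the 9 gates was 25.8% and 26.2% in unimmunized and 25.5% and 24.8% in immunized mice, and the conditions differed by -0.824 points (exact permutation test over mice, two-sided, p = 0.33, which is the lowest value possible with 2 mice against 2). The groups did not overlap in 6 of the 9 gates, each with p = 0.33 by the same exact permutation test. All gates came from the same 4 mice and are not independent. Immunized mice were above in the B cell-like gate, by 3.25 points, and in the alpha-beta T-like gate, by 2.63 points. They were below in the C1q macrophage-like gate (-3.26 points), the classical monocyte-like gate (-2.70), the migratory DC-like gate (-2.26) and the cDC1-like gate (-1.91). In the Cd209a DC-like, NK-like and nonclassical monocyte-like gates the mice overlapped, at -0.609, -1.72 and -0.835 points. The alpha-beta T-like difference was 0.451 points without immunized mouse 2, 4.81 without immunized mouse 1 and 0.287 with HTODemux, another way of assigning hashtags.

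The C1q macrophage-like shares were 21.9% and 23.5% in unimmunized and 20.7% and 18.2% in immunized mice, from 41, 18, 274 and 817 cells. The classical monocyte-like shares were 21.9% and 23.1% against 20.8% and 18.8%. The B cell-like libraries held 77 and 15 cells in unimmunized and 151 and 33 in immunized mice, at a median of 3270 and 3148 against 6969 and 4516 UMIs per cell, so depth per cell moved with the share there and its part was not tested. In these B cell-like libraries myeloid markers summed to 1987 and 2124 CPM against 2517 and 2095 CPM, an overlapping range.

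**Figure D5:**
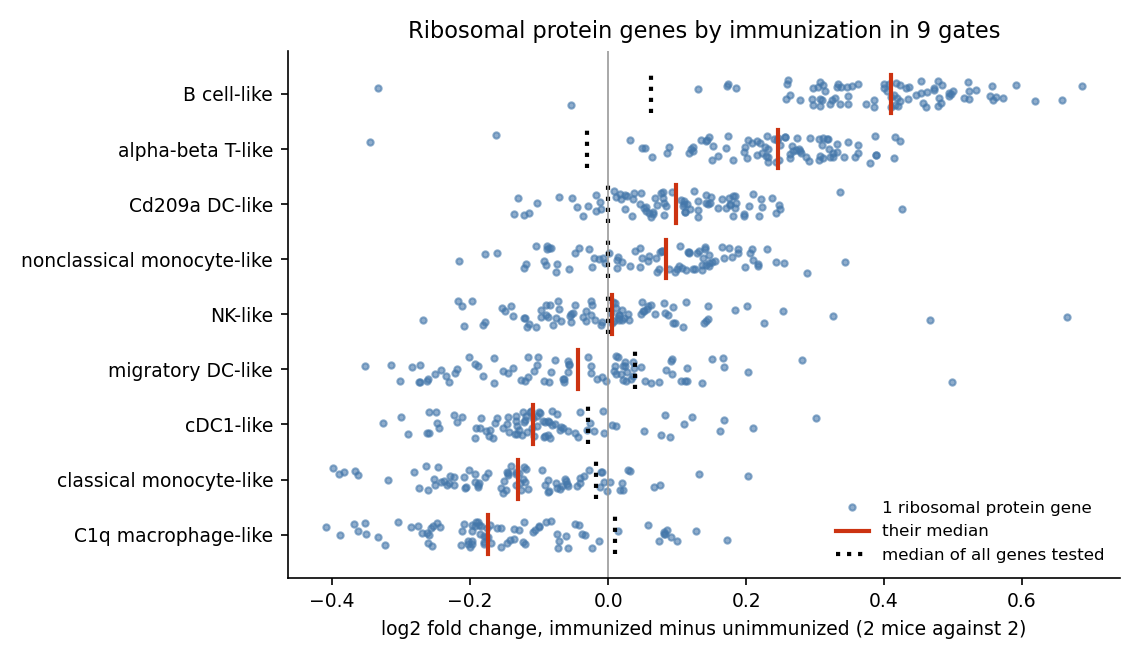
Log2 fold change on the TMM scale of each member between immunized and unimmunized mice, 2 against 2 (x axis), in each of 9 gates (y axis). The factor of a library moves all its members together. Each point is 1 member, solid lines are the medians of the members and dotted lines the medians of all genes tested. The median member runs from 0.41 in the B cell-like to -0.17 in the C1q macrophage-like gate, and no single point passed the adjusted threshold.

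Of 756 member and gate pairs, 0 passed an adjusted p under 0.05 by edgeR, by DESeq2 or under any other alternative, where 0.143% of all gene and gate pairs did. In simulated data the B cell-like contrast recovered 0 of 84 changes of 0.5 on the log2 scale and 1 of 84 changes of 1. The classical monocyte-like contrast recovered 2 of 84 and 25 of 84. Recovery was not tested for genes as abundant as the members. With 2 mice against 2, 0 calls do not show that the members were unchanged. Unadjusted, 58 pairs had a p under 0.05 by edgeR and 65 by DESeq2, 7.67% of the members' pairs by edgeR against 6.55% of all pairs. Of the 58, 47 lay in the B cell-like gate, all of them higher in immunized mice, where 4.09% of all genes were, and 8 in the alpha-beta T-like gate, where 2.91% of all genes were higher at that level. DESeq2 gave 18 in the B cell-like, 18 in the migratory DC-like, 14 in the alpha-beta T-like and 9 in the C1q macrophage-like gate. With library size alone edgeR gave 6 in the B cell-like and 2 in the alpha-beta T-like gate. It then gave 20 in the migratory DC-like and 19 in the C1q macrophage-like gate. Which gates held the unadjusted counts thus depended on the scaling. The share of all genes was not counted for these settings. The B cell-like count of 47 changed with the setting: leaving out immunized mouse 2 gave 3, immunized mouse 1 gave 10, unimmunized mouse 2 gave 18 and unimmunized mouse 1 gave 40. It was 0 under the stricter hashtag rule and in each capture alone, 2 at 10% mitochondrial UMIs or with the stricter gate, 6 with HTODemux or library size alone, and 58 in cells of at least 5000 UMIs. The alpha-beta T-like count of 8 was 0 without immunized mouse 2 and 20 without immunized mouse 1. The median member was at 0.41 in the B cell-like and 0.25 in the alpha-beta T-like gate, and at -0.17 and -0.13 in the C1q macrophage-like and classical monocyte-like gates, with the median of all genes between -0.03 and 0.06 in these 4. These medians are on the TMM scale, where the factor of a library moves all its members together. The mean share rose less steeply, from 30.9% to 34.2% in the B cell-like and from 31.4% to 34.0% in the alpha-beta T-like gate.

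With each mouse entered once, as its mean over the 9 gates, limma called 0 of 84 members and 0.0% of all genes, and 2 members, Rpl22l1 at 0.21 ± 0.088 and Rpl15 at 0.20 ± 0.083, had an unadjusted p under 0.05, where 7.65% of all genes did (adjusted p of 0.604 and 0.611). The biogenesis, translation and mitochondrial ribosomal lists likewise had 0 calls in that comparison. In the same simulated data it recovered 7 of 84 changes of 0.5 on the log2 scale and 46 of 84 changes of 1. Those were randomly drawn genes, not the members, and no effect of the animal was simulated.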

How the data were processed

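CITE-seq was analysed for 4 mice, 2 unimmunized and 2 immunized. Per the labels and methods, the authors aligned reads to mm10 with Cell Ranger (version 4.0.0 in the submitters' processing notes), joined both captures with its aggr step and made hashtag counts with CITE-seq-count; the depth setting of aggr was not given in the sources used here. The deposited gene values are UMI counts, used as deposited. Antibody counts were not used here. Cell Ranger drops reads that match several genes. The members, gene lists and tests were chosen with earlier results of these data known.

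Of 18662 barcodes, 1242 (621 sequences present in both captures, which the hashtag table cannot tell apart) were left out. Kept cells had 1 hashtag with at least 80% of hashtag counts and at least 10 counts, and at most 25% mitochondrial UMIs. Doublets were removed only where they held several hashtags, so doublets within a mouse remain. Each cell was scored for 14 marker lists by the mean log of normalized counts relative to the 99th percentile of that list. A gate required at least 3 markers, a relative score of 0.35 and a lead of 1.25 times over the next list. Gates took 6842 cells (56.4%).

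Counts were summed per mouse and gate into 50 libraries of at least 10 cells, 29323 to 12517361 UMIs; those of the 9 compared gates held 12 to 938 cells. Single genes were tested with edgeR 4.0.16 (R 4.3.3; TMM, filterByExpr, quasi-likelihood F test, 1 mean per gate and condition, equal-weight contrasts, common dispersion 0.0272), and, for the mean over gates, with limma 3.58.1 on log2 CPM with a prior count of 2, each with Benjamini-Hochberg adjustment at 0.05 over 10835 genes. Libraries of 1 mouse share that animal and the edgeR fit without a block treats them as independent. Shares used exact tests over mice, two-sided. The hashtag of a mouse pairs its libraries: the median correlation of deviations between gates of the same mouse was 0.03 in immunized mice (-0.04 to 0.52 over 36 gate pairs) and 0.03 in unimmunized mice (-0.02 to 0.18), and the mouse as a block was run as an alternative.

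Named genes were the 6 largest rises and falls past the threshold between lineages on each scale, the 4 largest for the C1q and immunization contrasts, each listed paralog with its parent, Fau, Rack1 and Eef1a1, and the 2 largest of each other list; some genes that this rule took are not reported here. Alternatives were HTODemux (Seurat 5.3.0) or a 95% and 20-count hashtag rule, 10% mitochondrial UMIs, a stricter gate, each capture alone, cells of at least 5000 UMIs, other scalings, no filter on low counts, DESeq2 1.42.0 and leaving out each mouse, with libraries of at least 3 cells kept over the same 9 gates where cells changed. After the data were seen, the C1q comparison against monocyte-like gates alone and the shares without the NK-like or without the Cd209a DC-like and cDC1-like gates were added. The fits were tested on simulated data with a dispersion of 0.03, known changes in genes drawn at random and no effect of the animal. Between lineages they recovered 33 of 88 changes of 0.5 on the log2 scale and 80 of 83 changes of 1. Far fewer were recovered in the immunization contrasts, as given with those results. Gene positions are from GENCODE on GRCm38 and start windows from RefSeq on GRCm38.p6. Values after ± are SDs over mice for shares, CPM and ratios, and standard errors of the fits for log2 differences. The limit of up to 3 UMIs for Rpl3l covers counting error only.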

Additional observations from a re-analysis of the deposited data

Results flagged for a closer look

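The share of UMIs from ribosomal protein genes was higher in immunized mice in 2 of 3 lymphoid gates and lower in 4 of 6 myeloid gates with no overlap between mice, which is why these values are listed. In each of these gates the exact permutation test over mice gave p = 0.33, and all gates came from the same 4 mice. Both immunized mice were above both unimmunized mice in the alpha-beta T-like gate, by 2.63 points (0.451 without immunized mouse 2, 4.81 without immunized mouse 1 and 0.287 with HTODemux), and in the B cell-like gate, by 3.25 points. The NK-like gate, the other lymphoid gate, was lower in immunized mice by -1.72 points, with overlapping mice. Its sign stayed negative under 13 of 13 alternatives, but its size rested on 1 mouse, at -0.163 without immunized mouse 2 and -3.28 without immunized mouse 1. Both immunized mice were below in the cDC1-like gate by -1.91 points, in the classical monocyte-like gate by -2.7 points, in the C1q macrophage-like gate by -3.26 points and in the migratory DC-like gate by -2.26 points. Differences between single gates were not tested. The lymphoid minus myeloid difference was 5.40 points in the unimmunized and 8.71 points in the immunized mice, a gap of 3.31 points (exact permutation test over mice, two-sided, p = 0.33, which is the lowest value possible with 2 mice against 2). Immunized mouse 2 had the highest share of the 4 mice in the alpha-beta T-like and B cell-like gates. It had the lowest in the lymphoid NK-like gate, at 23.2%, and in every myeloid gate except the migratory DC-like one. It also had the deepest cells, at a median of 12727.5 UMIs.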

How the results depend on the processing

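The lymphoid minus myeloid share difference kept its sign under all 15 alternatives (5.78 to 9.39 points). The number of members higher in the lymphoid gates was 63, and 36 with HTODemux, 29 with the 95% hashtag rule, 31 with at most 10% mitochondrial UMIs and 33 in capture 1 alone. It was 32 to 62 when 1 mouse was left out, lowest without immunized mouse 2. The number lower was 3, and 1 with the stricter gate. Over all genes, calls in either direction were 5050 of 10835 in the reported fit. They were 4556 of 10507 with HTODemux, 3358 of 9479 with the 95% hashtag rule and 4741 of 10183 at 10% mitochondrial UMIs. Capture 1 gave 3576 of 9524, and leaving out immunized mouse 2 gave 4349 of 10693. On the member-total scale the number higher was 25, and 16 with the 95% hashtag rule, 14 with no filter on low counts and 13 to 21 when 1 mouse was left out. For these settings on that scale, the share of all genes was not counted. The members lower in the C1q macrophage-like gate, 9, were the least stable: 3 with HTODemux, 0 with the 95% hashtag rule, 2 with at most 10% mitochondrial UMIs, 2 with the stricter gate, 0 in capture 1, 1 in capture 2, 4 in cells of at least 5000 UMIs, 1 to 7 when 1 mouse was left out, 26 with DESeq2 size factors, 15 with library size alone, 22 with DESeq2, and 0 (with 2 higher) against the monocyte-like gates alone, where Rpsa reversed to 0.0544. Over all genes in either direction, the C1q comparison with the other myeloid gates called 1410 of 10835 in the reported fit. It called 797 of 9479 with the 95% hashtag rule, 812 of 9524 in capture 1 and 1500 of 10835 with DESeq2 size factors. Immunization counts were 0 under every alternative run. The share difference by immunization reversed in the Cd209a DC-like gate, from -0.609 points to 0.876 with the 95% hashtag rule, 0.103 in capture 2, 0.0139 as a median over cells, and -2.15 to 0.928 when 1 mouse was left out, in the cDC1-like gate to 0.468 in capture 2 and in the nonclassical monocyte-like gate to 0.654 in capture 1. The cause of these shifts was not tested. Where the choice of cells changed, libraries down to 3 cells also entered, so the effect of that choice alone was not separated. With library size alone the median of all genes moved from 0.04 to 0.16 on the log2 scale and that of the members from 0.26 to 0.39. With the mouse as a block, the pairing of libraries by animal gave 64 members higher and 3 lower between lineages, 24 and 21 on the member-total scale, and 0 higher and 13 lower for the C1q gate; no block can be had for immunization, which lies between mice. In the immunization contrasts gates held as few as 12 cells in a mouse, and each condition had 2 mice.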

Other observations

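The interferon monocyte-like gate, marked by interferon-induced genes such as Ifit1 and Cxcl10, gave a ribosomal protein share of 20.2% (n = 3 mice), and the inflammatory macrophage-like gate, marked by Nos2 and Acod1, 17.6% in the 2 immunized mice that had it. The Rps27l ratio was 14.4 and 16.7 per 100 Rps27 UMIs in the inflammatory macrophage-like gate of immunized mouse 1 and mouse 2. In the interferon monocyte-like gate it was 9.99 in unimmunized mouse 1 and 9.78 and 14.2 in the immunized mice. The Rpl22l1 ratio in these gates was 25.6 to 33.5 per 100 Rpl22 UMIs.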
